A study of Manis javanica with 3 samples.

Results

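The genes described here are the glycosyltransferases that build and cap the sugar chains of secreted proteins and lipids in the Malayan pangolin, *Manis javanica*. They were chosen by name alone. A gene was a member when its Swiss-Prot symbol began with GALNT, GCNT, C1GALT, B3GNT, B3GALT, B4GALT, FUT, ST3GAL, ST6GAL or ST8SIA, and members were then grouped into the core, extension, fucose and sialic acid steps. The rule found 88 annotated genes, of which 84 of the 24220 genes in the expression tables carried values. These comprised 34 core genes, 17 extension genes, 11 fucosyltransferase genes and 22 sialyltransferase genes. The other 4, models named GALNT4, FUT7, ST3GAL4 and ST8SIA1, were not analysed here. RNA was sequenced as 1 library per tissue from liver, salivary glands and small intestine of a wild adult female that died during its rescue. The study names no treatment and describes all 3 tissues as taken from 1 animal, although the labels speak of 3 samples. Nothing was therefore replicated, no test between tissues was possible, and each difference below is between libraries.

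Sugar chains on the serine and threonine residues of mucins start when a GALNT enzyme adds N-acetylgalactosamine to the protein. C1GALT1, which needs its chaperone C1GALT1C1, and the branching GCNT enzymes turn that sugar into the common cores, and B3GNT, B3GALT and B4GALT enzymes lengthen the chain. FUT enzymes add fucose, which makes blood group and Lewis structures, and the ST3GAL, ST6GAL, ST6GALNAC and ST8SIA enzymes add sialic acid, which gives saliva and mucus much of their negative charge. In the liver the same families finish the chains of the plasma proteins that hepatocytes secrete.

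Swiss-Prot symbols in this annotation often name a paralog, since the closest entry can come from another animal. The KEGG symbol differed from the Swiss-Prot symbol in 30 of the 69 members that had one. Members are therefore called here by the KEGG symbol or, failing that, by the protein product, except that B4GAT1, LARGE2 and FUT3 are called by product although KEGG gives another symbol, while membership stays with the Swiss-Prot symbol. By product, 7 members are other enzymes. Among them are the chondroitin-building CHPF2, CHSY1 and CHSY3, and B3GALNT2, B4GAT1 and LARGE2, which act on the sugar chain of dystroglycan. Some genes are split over several models (GALNT1, GALNT7, GALNTL6, FUT10, ST3GAL3 and ST6GAL2), and the share of reads that each model received is uncertain.

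The counts summed to between 8318686 and 14568778 fragments per library. The library labelled small intestine held far more RNA of gastric than of enterocyte markers, since 9 of 13 gastric gene models exceeded an FPKM of 1 and the list summed to an FPKM of 58922, against 51.9 in the salivary glands and 0.503 in the liver. CHIA alone gave 43108 of the first sum and 40.0 of the second, and PGC (gene7091) gave 9427 of the first. The gastric markers LIPF and GIF stayed below an FPKM of 1 in the library labelled small intestine. The 15 enterocyte models summed to 29.7 there, of which VIL1 gave 24.0, to 27.5 in the salivary glands and to 142 in the liver, of which a sucrase-isomaltase model (gene10946) gave 114. FABP2 and LCT were at 0 in all 3. The enterocyte marker SLC5A1 and the goblet cell marker CLCA1 were highest in the library labelled small intestine, at an FPKM of 1.94 and 0.916. Smooth muscle markers summed to an FPKM of 2016 in that library, 83.3 in the salivary glands and 0.850 in the liver, although ACTG2 was at 0 in all 3. The 16 salivary gland models summed to 134.3, 133.9 and 71.5 in the small intestine, salivary glands and liver, so that this list did not set the salivary glands apart. AQP5 (2.29, 94.3 and 24.7) and PIP (0.481, 27.96 and 0) were highest in the salivary glands, while CA6 and 4 DMBT1 models called over both other libraries were highest in the small intestine and BPIFA1 was at 0. The 9 hepatocyte models summed to 143, 57.8 and 11578, and ALB was at 89.1 in the small intestine against 434 in the liver. FGA gave 9658 of the liver sum. Of the 9 models, 8 were at least 2-fold higher in the liver than in both other libraries. The other, a TTR model (gene10056), was highest in the salivary glands, at 22.8, 53.1 and 35.1. The small intestine is named below by its label. The part of these cells in the values below was not tested. In any of these tissues, fewer cells of a type and less RNA per cell cannot be told apart.

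FPKM (fragments on a gene scaled for its length and for the library's mapped fragments) was used for levels, and an FPKM above 1 counted as expression. By that threshold 48 of 84 members (57.1%) were expressed in the small intestine, 43 (51.2%) in the salivary glands and 43 (51.2%) in the liver, beside 59.4%, 56.3% and 57.0% of all genes. Expression in every library was found for 33 members and in at least 1 library for 60. The median FPKM of the members was 1.40, 1.13 and 1.23 in the small intestine, salivary glands and liver, and that of all genes was 2.16, 1.76 and 1.89. The members were thus mostly of low level, with a few far above the rest. No member exceeded an FPKM of 93.1, which ST6GALNAC2 reached in the small intestine and ST6GAL1 nearly reached in the liver.

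**Figure D1:**
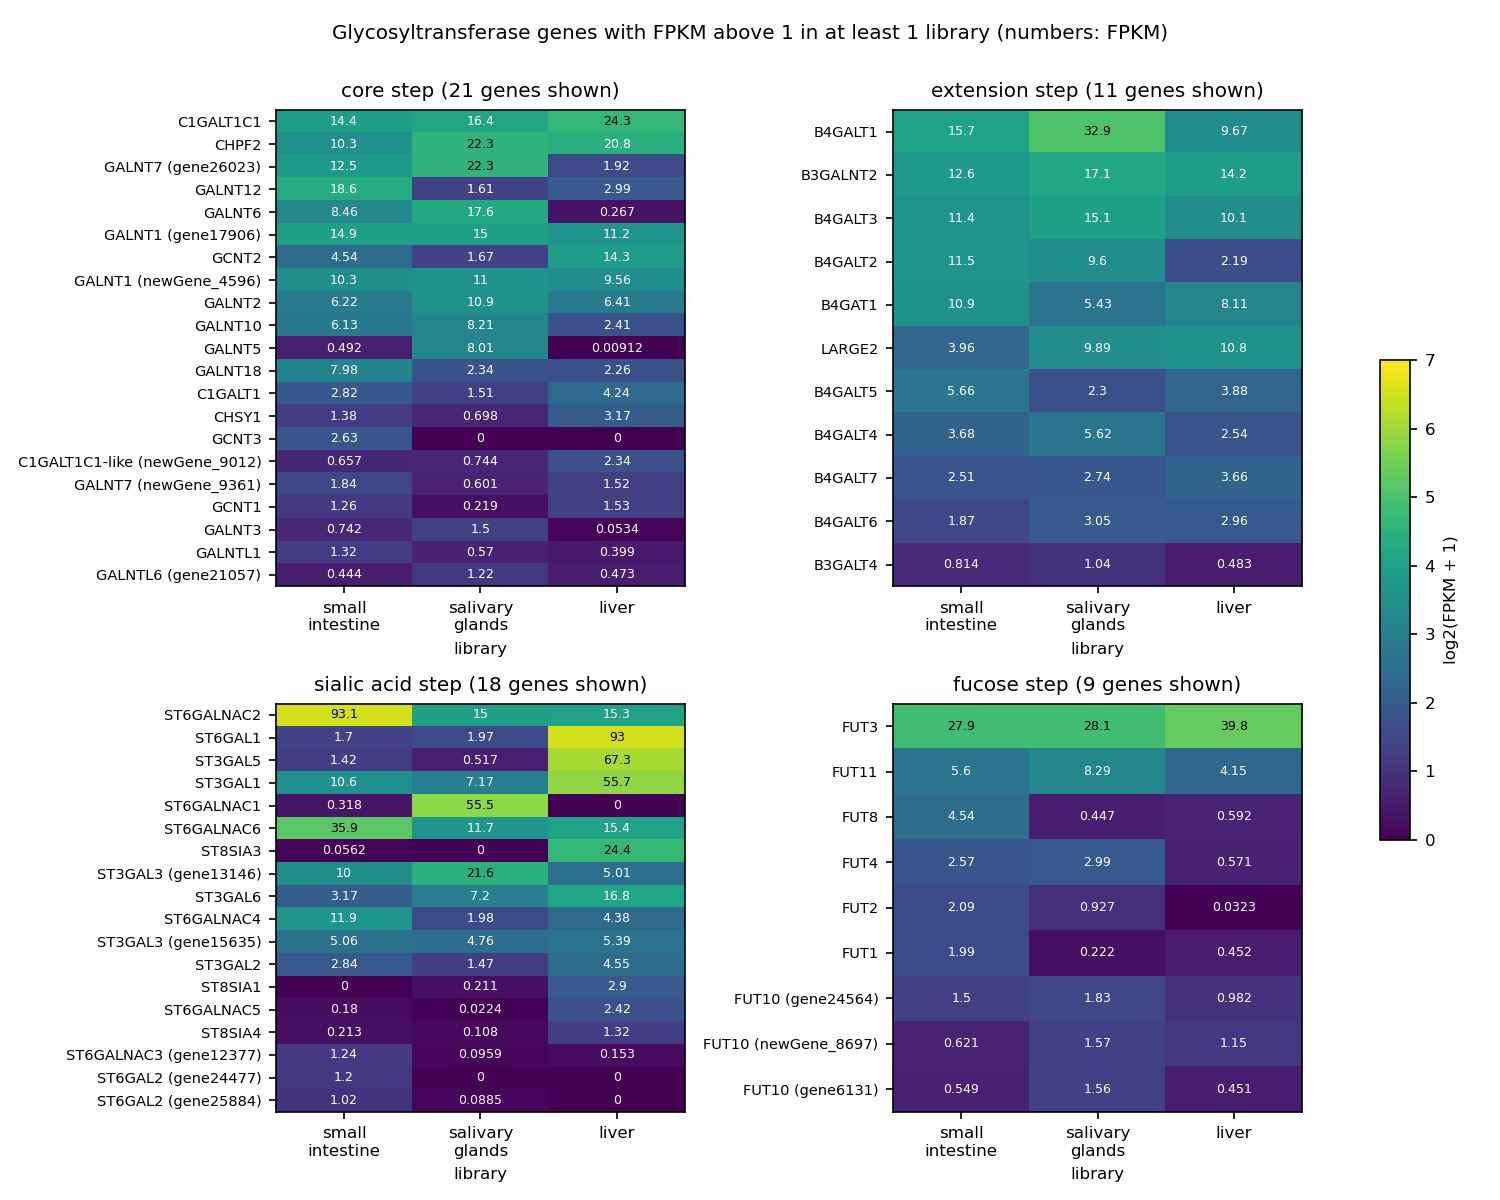
FPKM of members expressed in at least 1 library, with genes as rows grouped by step, libraries as columns and colour as log2(FPKM + 1). The strongest colours lie in the sialic acid step, where ST6GALNAC2 (93.1, small intestine), ST6GALNAC1 (55.5, salivary glands) and ST6GAL1 (93.0, liver) each peaked in a different library.

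Between libraries, counts were scaled by TMM and a gene was called at a ratio of at least 2, among genes with at least 10 counts in 1 of the 2 libraries. A count of 0 was set to 3 counts, and a ratio to such a count is written as "at least", with no interval. Ratios carry a 95% interval that covers counting error only. Of 64 members compared between the small intestine and the liver, 24 were higher in the small intestine, where 24.2% of all genes were called, and 16 were higher in the liver, beside 24.0% of all genes. These are 37.5% and 25.0% of the members. Of 63 members compared between the salivary glands and the liver, 22 (34.9%) were higher in the salivary glands, beside 22.9% of all genes, and 17 (27.0%) were higher in the liver, beside 24.9%. Of 62 members compared between the small intestine and the salivary glands, 19 (30.6%) were higher in the small intestine, beside 20.6% of all genes, and 13 (21.0%) in the salivary glands, beside 16.9%. This balance turned when counts were scaled by library size only, with 13 higher in the small intestine against 20 in the salivary glands. The median log2 ratio of the members was 0.34, 0.07 and -0.14 in these comparisons, and that of all genes was -0.08, -0.07 and -0.02. The counting interval of the ratio excluded 1 for all but at most 2 of the called members in every comparison and direction. Those members were called from the same counts, so this adds no support to the calls.

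The called members were spread over the steps as follows, and differences between steps were not tested. Between the small intestine and the liver, where 24.2% and 24.0% of all genes were called, 11 of 25 core genes were higher in the small intestine and 7 in the liver. In the same comparison 3 of 13 extension genes were higher and 1 lower in the small intestine, 4 of 8 fucosyltransferases were higher and none lower, and 6 of 18 sialyltransferases were higher and 8 lower. The members higher in the liver include other enzymes by product, CHPF2, CHSY1 and CHSY3 in the core step and LARGE2 in the extension step. Between the salivary glands and the liver, beside 22.9% and 24.9% of all genes, 8 of 24 core genes were higher and 7 lower in the salivary glands, and 2 of 16 sialyltransferases were higher and 10 lower. There 7 of 14 extension genes and 5 of 9 fucosyltransferases were higher in the salivary glands, and none was lower. Those 5 include 2 models of FUT10, since models of a split gene are counted singly here. CHSY1 and CHSY3 were among the 7 core genes lower in the salivary glands. Between the small intestine and the salivary glands, beside 20.6% and 16.9% of all genes, 7 of 24 core genes were higher and 6 lower in the small intestine, 1 of 14 extension genes was higher and 2 lower, 3 of 9 fucosyltransferases were higher and 2 lower, and 8 of 15 sialyltransferases were higher and 3 lower. The 2 fucosyltransferases lower in the small intestine are both models of FUT10.

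A ratio of at least 2 over both other libraries was found for 11 of 67 members in the small intestine, beside 12.2% of all genes, for 8 in the salivary glands, beside 9.00%, and for 12 in the liver, beside 15.9%. The 11 of the small intestine were GALNT12, GALNT18, GALNTL1, GCNT3, FUT1, FUT2, FUT8, ST6GALNAC2, ST6GALNAC4, and a model each of ST6GAL2 and ST6GALNAC3. The 8 of the salivary glands were GALNT5, GALNT6, GALNT14, B4GALT1, ST6GALNAC1 and a model each of GALNTL6, FUT10 and ST3GAL3. The 12 of the liver held 7 sialyltransferases (ST6GAL1, ST3GAL1, ST3GAL5, ST6GALNAC5, ST8SIA1, ST8SIA3 and ST8SIA4), with GCNT2, CHSY1, CHSY3, a C1GALT1C1-like gene and a GALNTL3 model. A further 17 members of the 84 did not reach 10 counts in any library.

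Summed over a step, the sialyltransferases had the greatest difference between libraries of the 4 steps. Their FPKM summed to 315 in the liver against 181 in the small intestine, with 129.9 in the salivary glands. ST6GALNAC2 alone made up 51.3% of the sum in the small intestine and ST6GALNAC1 42.7% of that in the salivary glands, while in the liver ST6GAL1 made up 29.5%. The core genes summed to 130.5, 147 and 113 in the small intestine, salivary glands and liver, and the extension genes to 91.3, 115 and 72.0. The order of the small intestine and the salivary glands in these 2 sums was not stable: with FPKM divided by the TMM factor, the core sum was 153 in the small intestine against 126 in the salivary glands, and the extension sum 107 and 98.5. Other enzymes by product are part of the core and extension sums. CHPF2 gave 15.2% of the core sum in the salivary glands, and B3GALNT2 19.7% of the extension sum in the liver. These are shares of single genes, and all such enzymes together gave more. In the liver extension sum, LARGE2 (10.8) and B4GAT1 (8.11) were other enzymes too. The fucosyltransferases summed to 47.3, 46.1 and 48.2, and FUT3 gave 58.9%, 61.0% and 82.6% of these.

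**Figure D2:**
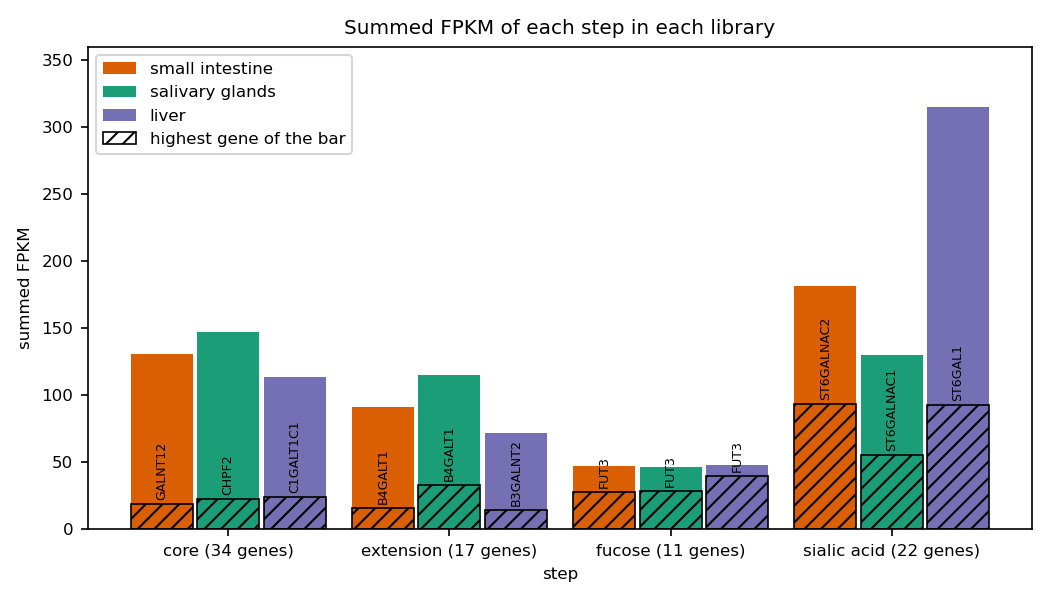
Summed FPKM of the members of each step in the 3 libraries, with the hatched part showing the gene of highest FPKM, named above it. The sialic acid bars run from 129.9 in the salivary glands to 315 in the liver, and the fucose bars from 46.1 to 48.2.

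Among the GALNT genes, which choose the sites where mucin chains begin, a group was far higher in both other tissues than in the liver. GALNT6 (gene1209) had an FPKM of 0.267 in the liver, beside 8.46 in the small intestine and a salivary gland level of 17.6, from 25, 462 and 1192 counts. It was 71.8-fold higher in the salivary glands than in the liver (95% interval 48.4 to 111) and 31.3-fold higher in the small intestine than in the liver (20.9 to 48.8). GALNT7 (gene26023), which acts on peptides that already carry the sugar, had an FPKM of 12.5, 22.3 and 1.92 in the small intestine, salivary glands and liver, the order of values used from here on. Its salivary level was 14.1-fold that of the liver (11.1 to 18.2) and 1.72-fold that of the small intestine (1.51 to 1.96). GALNT3 (gene2597) followed the same order at a low level, with an FPKM of 0.742, 1.50 and 0.0534 from 24, 51 and 2 counts.

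GALNT5 (gene4822, Swiss-Prot symbol GALNT1) was the GALNT gene most unequal between the libraries. Its FPKM was 0.492 in the small intestine, 8.01 in the salivary glands and 0.00912 in the liver, from 39, 712 and 1 counts. The salivary glands thus stood 16.2-fold above the small intestine (11.8 to 23.0). The ratio to the liver was 1072, but with 1 liver count its lower bound was 192. GALNT14 (gene6443) was also highest in the salivary glands, though with only 11 counts there.

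GALNT12 (gene8630, Swiss-Prot symbol GALNT6) had the opposite pattern and was the highest core gene of the small intestine. Its FPKM was 18.6 in the small intestine, 1.61 in the salivary glands and 2.99 in the liver. The small intestine was 10.4-fold above the salivary glands (7.47 to 14.9) and 6.50-fold above the liver (5.17 to 8.25). GALNT18 (gene22024) was likewise highest in the small intestine, with an FPKM of 7.98, 2.34 and 2.26. GALNT12 and GALNT6 share a Swiss-Prot symbol here yet peaked in different libraries.

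GALNT1 and GALNT2, known for broad expression, were on in all 3 libraries. GALNT1 (gene17906) had an FPKM of 14.9, 15.0 and 11.2, and its second model (newGene_4596) 10.3, 11.0 and 9.56. The small intestine and salivary gland levels of gene17906 did not differ beyond counting error, with a ratio of 1.03 (0.883 to 1.21), and the small intestine was 1.82-fold above the liver (1.54 to 2.14). GALNT2 (gene3727) had an FPKM of 6.22, 10.9 and 6.41, highest in the salivary glands at 1.98-fold the small intestine (1.76 to 2.24) and 1.71-fold the liver (1.55 to 1.89). GALNT10 (gene1780) had 6.13, 8.21 and 2.41. Of the 22 GALNT members, 10, 11 and 8 were expressed in the small intestine, salivary glands and liver.

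The next enzyme, C1GALT1 (gene17076), which adds galactose to the first sugar, was low in every library, with an FPKM of 2.82, 1.51 and 4.24 in the small intestine, salivary glands and liver. Its level in the salivary glands was below both others, and the liver exceeded it 2.14-fold (1.62 to 2.85). Its chaperone C1GALT1C1 (gene15575) was the highest core gene of the liver, with an FPKM of 14.4, 16.4 and 24.3, but by scaled counts the liver was only 1.39-fold above the small intestine (1.13 to 1.71). A C1GALT1C1-like new gene reached 2.34 in the liver.

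The 3 branching enzymes with the highest FPKM were all lowest in the salivary glands or at 0 there. GCNT3 (gene1246), the mucin-type branching enzyme of the digestive tract, was seen in the small intestine at an FPKM of 2.63 from 46 counts, and had 0 counts in the salivary glands and the liver. It was at least 17.2-fold higher in the small intestine than in the salivary glands and at least 26.0-fold higher than in the liver. GCNT1 (gene16121), which makes the same branch in many tissues, had an FPKM of 1.26, 0.219 and 1.53, and the small intestine exceeded the salivary glands 4.19-fold (2.12 to 9.04). GCNT2 (gene8433, Swiss-Prot symbol GCNT7), which branches long lactosamine chains, was a liver gene in these data, with an FPKM of 4.54, 1.67 and 14.3. The liver was 2.81-fold above the small intestine (2.31 to 3.44) and 9.46-fold above the salivary glands (6.89 to 13.3). The 5 GCNT members summed to an FPKM of 9.16, 2.44 and 16.0.

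The other enzymes in the core group by symbol belong to proteoglycan synthesis. CHPF2 (gene4171, Swiss-Prot symbol C1GALT1) had an FPKM of 10.3, 22.3 and 20.8, 2.34-fold higher in the salivary glands than in the small intestine (2.09 to 2.64). A gene model on the other strand overlaps it, and counting did not use strand, so reads of the 2 cannot be told apart. CHSY1 and CHSY3 were both highest in the liver, at an FPKM of 3.17 and 0.779.

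Among the extension enzymes, B4GALT1 (gene15319), the main galactosyltransferase of lactosamine chains and a part of lactose synthase, was the highest outside the liver. Its FPKM was 15.7 in the small intestine, 32.9 in the salivary glands and 9.67 in the liver. The salivary glands were 2.18-fold above the small intestine (1.97 to 2.43) and 3.58-fold above the liver (3.22 to 3.97). B4GALT2 (gene15630, Swiss-Prot symbol B4GALT1) was low only in the liver, with an FPKM of 11.5, 9.60 and 2.19, and its other 2 levels did not differ beyond counting error (ratio 1.14, 0.966 to 1.36). B4GALT3 (gene6618) was even, with an FPKM of 11.4, 15.1 and 10.1.

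B4GALT4, B4GALT5, B4GALT6 and B4GALT7 ranged from an FPKM of 1.87 to 5.66. B4GALT5 (gene4298), which with B4GALT6 makes lactosylceramide, was highest in the small intestine at 5.66, against 2.30 in the salivary glands. B4GALT7, which acts on the linker of proteoglycans, had 2.51, 2.74 and 3.66. The B3GALT genes proper were close to silent: B3GALT4 (gene783), which acts on gangliosides, was the highest at an FPKM of 0.814, 1.04 and 0.483, B3GALT1 (gene10251) had 0.154, 0.173 and 0.0281 from 8, 10 and 2 counts, and B3GALT5 was seen only as 2 counts in the liver. B3GNT5 (gene9456), which starts lacto-series glycolipids, had 0.232, 0.278 and 0.0695.

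The members of this step that act on dystroglycan were among its higher genes. B3GALNT2 (gene13290, Swiss-Prot symbol B3GALT2) had an FPKM of 12.6, 17.1 and 14.2, and its small intestine and liver levels did not differ beyond counting error (ratio 1.01, 0.898 to 1.13). B4GAT1 (gene6880, Swiss-Prot symbol B3GNT1) had 10.9, 5.43 and 8.11. LARGE2 (gene12747, Swiss-Prot symbol B3GNT1), which extends the same chain, had 3.96, 9.89 and 10.8, and the liver was 3.27-fold above the small intestine (2.77 to 3.88), with an overlapping model on the other strand.

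The fucose step was led in every library by a gene called FUT3 by product (gene19956), which KEGG names FUT5. FUT3 is known as the Lewis enzyme, but the activity of this gene was not tested. Its FPKM was 27.9 in the small intestine, 28.1 in the salivary glands and 39.8 in the liver, from 208, 193 and 423 counts. By scaled counts the liver was 1.20-fold above the small intestine (1.02 to 1.43) and 1.46-fold above the salivary glands (1.22 to 1.73). A model on the other strand overlaps this gene as well, so its level is uncertain.

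The fucosyltransferases of the H antigen were highest in the small intestine. FUT2 (gene529), the secretor enzyme, had an FPKM of 2.09, 0.927 and 0.0323 from 73, 39 and 2 counts. It was 61.8-fold higher in the small intestine than in the liver (16.5 to 520) and 2.10-fold higher than in the salivary glands (1.41 to 3.19). FUT1 (gene11851), which makes the same antigen on other carriers, had 1.99, 0.222 and 0.452, so the small intestine exceeded the salivary glands 9.13-fold (4.37 to 22.0). FUT4 (gene5813), an enzyme of Lewis x, had 2.57, 2.99 and 0.571. A FUT2-like model beside FUT2 on the same scaffold, 10585 bases before it, had only 2 counts, all in the salivary glands.

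FUT8 (gene11546), which puts the core fucose on N-linked chains, was also highest in the small intestine, with an FPKM of 4.54, 0.447 and 0.592. The small intestine exceeded the salivary glands 6.41-fold (3.96 to 10.9) and the liver 4.71-fold (3.27 to 6.90). FUT11 (gene10459) was more even, with 5.60, 8.29 and 4.15. FUT9 (gene6515) had 1 count each in the small intestine and the salivary glands, and none in the liver.

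The highest member of each library by FPKM was a sialyltransferase, and a different one in each. ST6GALNAC2 (gene10378, Swiss-Prot symbol ST3GAL2), which sialylates the N-acetylgalactosamine of mucin cores, was the highest member in the small intestine. Its FPKM was 93.1 in the small intestine, 15.0 in the salivary glands and 15.3 in the liver, from 2197, 412 and 590 counts. The small intestine was 5.99-fold above the salivary glands (5.39 to 6.68) and 6.30-fold above the liver (5.75 to 6.91), while the other 2 did not differ beyond counting error (ratio 1.05, 0.925 to 1.19).

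ST6GALNAC1 (gene10379, Swiss-Prot symbol ST3GAL1), known as the sialyl-Tn synthase because it caps the first sugar before a core is built, was nearly exclusive to the salivary glands among these libraries. Its FPKM was 0.318 in the small intestine, 55.5 in the salivary glands and 0 in the liver, from 12, 2414 and 0 counts. The salivary glands were 179-fold above the small intestine (102 to 347) and at least 1212-fold above the liver. Genes that exceeded an FPKM of 1000 in the salivary glands but not 1 in the liver (4 genes) were seen in the small intestine at 0.157 to 0.265% of their salivary FPKM. For ST6GALNAC1 the small intestine over salivary glands ratio was 0.00559 by scaled counts (0.00288 to 0.00978), a measure unlike the FPKM share of those 4 genes. The origin of its 12 counts was not tested.

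ST6GALNAC1 and ST6GALNAC2 lie next to each other on the minus strand of 1 scaffold, at NW_016534261.1:213922-236075 and NW_016534261.1:178446-190922, with 23000 bases between them. The genome build is not named in the sources used here. ST6GALNAC6 (gene9745) and ST6GALNAC4 (gene9746) are neighbours too, and their models lie only 92 bases apart on the minus strand of another scaffold, at NW_016533818.1:196457-213288 and NW_016533818.1:213380-223998. Unlike the former pair, these had the same order of libraries. ST6GALNAC6, which acts on gangliosides and Lewis-type chains, had an FPKM of 35.9, 11.7 and 15.4 in the small intestine, salivary glands and liver, and ST6GALNAC4, which makes disialylated core chains, had 11.9, 1.98 and 4.38. By scaled counts the small intestine exceeded the salivary glands 2.82-fold for ST6GALNAC6 (2.48 to 3.22) and 5.31-fold for ST6GALNAC4 (3.60 to 8.03).

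The liver was marked by ST6GAL1, ST3GAL5, ST3GAL1 and ST8SIA3. ST6GAL1 (gene1176, Swiss-Prot symbol ST6GAL2), the enzyme that caps the N-linked chains of plasma proteins, had an FPKM of 93.0 in the liver, beside 1.70 in the small intestine and a salivary gland level of 1.97, from 5407, 53 and 80 counts. It ranked 733 of 24220 genes in the liver by FPKM. The liver was 60.3-fold above the small intestine (46.0 to 80.6) and 44.9-fold above the salivary glands (36.0 to 56.7), and the latter 2 did not differ beyond counting error (ratio 1.34, 0.937 to 1.94).

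ST3GAL5 (gene16923), the GM3 synthase that opens ganglioside synthesis, had an FPKM of 1.42, 0.517 and 67.3 from 13, 6 and 840 counts. The liver exceeded the small intestine 38.2-fold (22.2 to 72.0) and the salivary glands 93.0-fold (42.5 to 254). ST3GAL1 (gene10904), which caps the galactose of mucin cores, was expressed in all 3 libraries, at an FPKM of 10.6, 7.17 and 55.7. Its liver level was 5.95-fold that of the small intestine (5.49 to 6.47) and 8.11-fold that of the salivary glands (7.42 to 8.88), from 6471 liver counts, the most of any member in any library.

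ST8SIA3 (gene19821), a sialic acid chain enzyme best known from the brain, had an FPKM of 0.0562, 0 and 24.4, from 3, 0 and 1110 counts. The liver was 219-fold above the small intestine (lower bound 74.6) and at least 246-fold above the salivary glands. The other ST8SIA genes were low. ST8SIA1 (gene24426), the GD3 synthase, had 0, 1 and 22 counts and an FPKM of 2.90 in the liver, and ST8SIA4 (gene5600), a polysialic acid synthase, had an FPKM of 0.213, 0.108 and 1.32. No ST8SIA gene was expressed above an FPKM of 1 in the small intestine or the salivary glands, whereas 3 of 6 were in the liver. ST6GALNAC5 (gene2458), an enzyme of brain gangliosides, was likewise highest in the liver, at 2.42 against 0.180 and 0.0224.

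ST3GAL6 (gene21243), an enzyme of sialyl Lewis x, increased from the small intestine over the salivary glands to the liver, with an FPKM of 3.17, 7.20 and 16.8, and each step exceeded counting error (2.26-fold, 1.68 to 3.07, and 1.67-fold, 1.39 to 2.02). It too has an overlapping model on the other strand. ST3GAL3 had 2 models. The longer (gene15635) was even, with an FPKM of 5.06, 4.76 and 5.39. The shorter (gene13146), of 324 bases, had 10.03, 21.6 and 5.01, but these rest on 10, 25 and 8 counts. The 2 ST6GAL2 models had 5 and 10 counts in the small intestine and 1 count elsewhere.

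**Figure D3:**
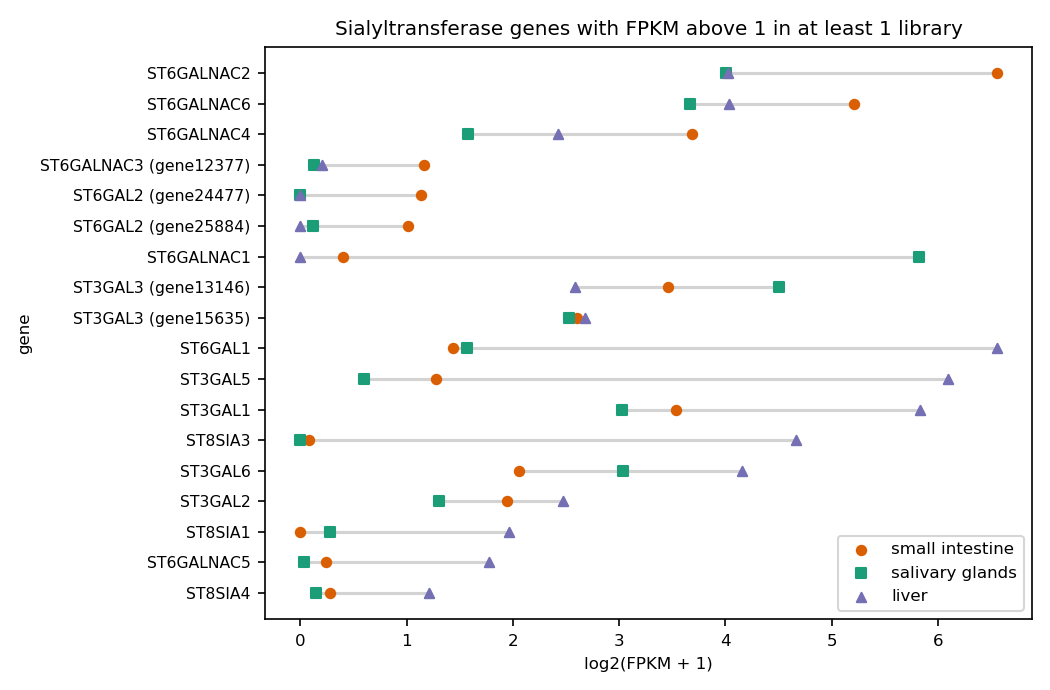
Levels of the 18 sialyltransferase genes expressed in at least 1 library, as log2(FPKM + 1) on the horizontal axis, with a point for each library and genes ordered by the library of their highest scaled count. ST6GALNAC2 (93.1 in the small intestine), ST6GALNAC1 (55.5 in the salivary glands) and ST6GAL1 (93.0 in the liver) lead the 3 groups, and ST8SIA3 lies near 0 outside the liver.

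**Figure D4:**
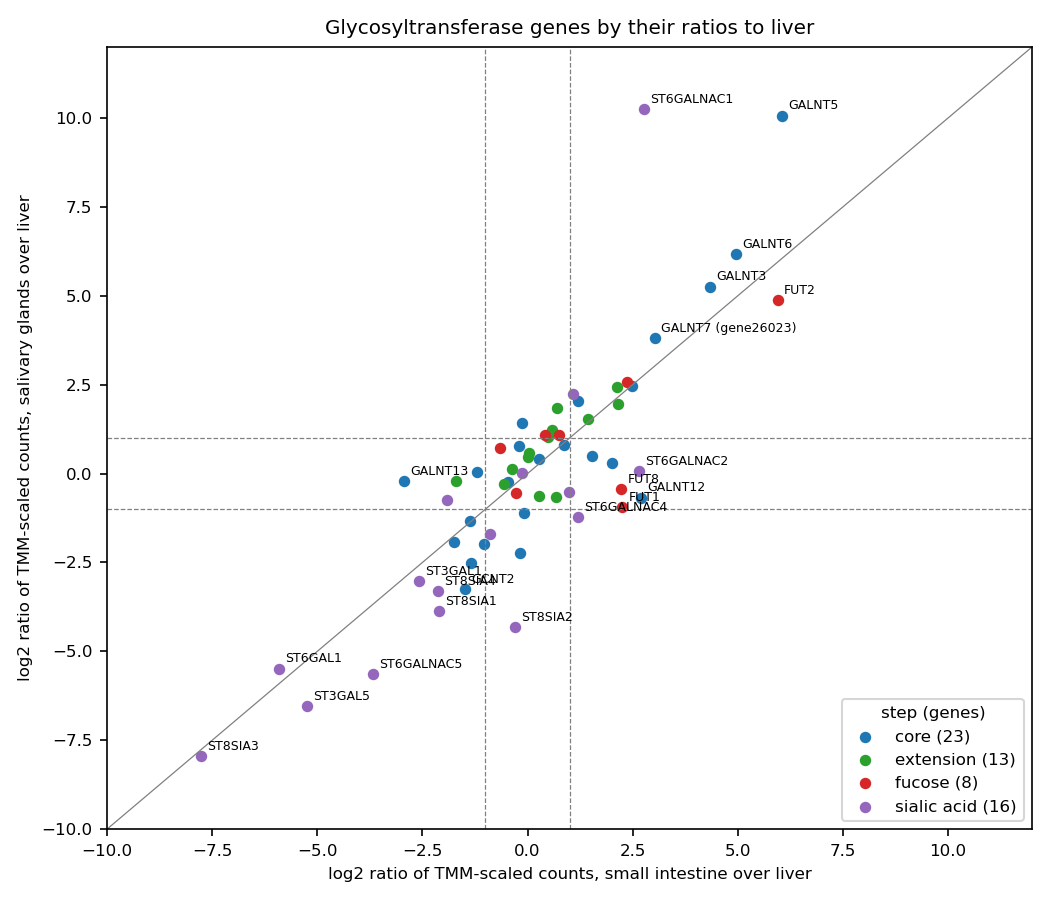
Log2 ratios of TMM-scaled counts over the liver for 60 members compared in both, with the small intestine on the horizontal and the salivary glands on the vertical axis, colour showing the step, dashed lines marking a ratio of 2, the diagonal marking equal ratios and counts of 0 set to 3. GALNT5, GALNT6, GALNT3 and FUT2 lie high on both axes, and ST8SIA3, ST3GAL5 and ST6GAL1 lie far down on both. ST6GALNAC1 lies at 10.2 on the vertical axis and at 2.76 on the horizontal axis, with its liver count of 0 set to 3.

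No read was counted in any library for 3 members, GALNT8, ST8SIA5 and a C1GALT1C1-like model (gene7202). A count of 0 allows up to 0.295, 0.361 and 0.206 CPM (counts per 1000000) in the small intestine, salivary glands and liver.

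The symbol rule missed 10 genes of the same families that carry another Swiss-Prot symbol, and 5 of these were expressed in each library. GALNT11 (gene9666) had an FPKM of 18.2, 15.6 and 13.1. B3GNT8 (gene1968) had 12.5, 9.78 and 5.18, and B3GNT2 (gene5577), the main enzyme that lengthens lactosamine chains, had 3.21, 4.83 and 6.48. B3GNT6, which makes the core typical of the colon, had no count in any library.

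The genes that supply the donor sugars were on in all 3 tissues, and 23 of 24 models exceeded an FPKM of 1 in each. The counts of called genes in this and the following lists stand beside 24.2% of all genes higher and 24.0% lower in the small intestine than in the liver, 22.9% and 24.9% in the salivary glands than in the liver, and 20.6% and 16.9% in the small intestine than in the salivary glands. Between the small intestine and the salivary glands, 1 of 23 was higher in the small intestine, against 11 in the salivary glands. Against the liver, 4 were higher and 10 lower in the small intestine, and 4 were higher and 4 lower in the salivary glands. TSTA3 and GMDS make GDP-fucose. TSTA3 had the highest FPKM of the list, 23.3, 111 and 37.6 in the small intestine, salivary glands and liver, and GMDS (gene15743) had 26.8, 70.3 and 6.32. GFPT2, which feeds hexosamine synthesis, had 74.2, 21.6 and 9.22, and GNPNAT1, a later step of that pathway, 10.7, 23.9 and 72.9. Of the transporters that carry donors into the Golgi, 11 were compared. None was higher and 4 were lower in the small intestine than in the liver, none was higher and 3 were lower in the salivary glands than in the liver, and 1 was higher and 4 lower in the small intestine than in the salivary glands. SLC35B2, SLC35A5 and SLC35A3 led them with a highest FPKM of 17.1, 13.0 and 12.8.

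Among other glycan transferases, 12 of 22 were higher and 2 lower in the small intestine than in the liver, 9 of 19 higher and 3 lower in the salivary glands than in the liver, and 9 of 24 higher and 6 lower in the small intestine than in the salivary glands. MGAT1, which opens complex N-linked chains, was highest at an FPKM of 20.8, 45.9 and 81.0, followed by MGAT4B with 45.3, 58.2 and 23.6 and GGTA1 (gene13232), which makes the alpha-Gal cap, with 49.96, 20.9 and 40.7. A4GNT, which caps gastric gland mucin, was counted only in the small intestine, where its 3 models had an FPKM of 7.84, 5.18 and 0.504. It is named here after its values were seen.

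Of 8 sulfotransferases compared, 6 were higher and none lower in the small intestine than in the liver, and 4 of 7 were higher and none lower in the salivary glands. Between the small intestine and the salivary glands, 2 of 8 were higher and 1 was lower. GAL3ST4, which sulfates the galactose of mucin cores, had an FPKM of 3.21, 22.3 and 0.434, and was 36.5-fold higher in the salivary glands than in the liver. CHST10 (gene23078) and CHST3 had a highest FPKM of 8.31 and 2.89. Among the trimming genes, 2 of 6 were higher and 1 lower in the small intestine than in the liver, 2 of 6 were higher and none lower in the salivary glands than in the liver, and 1 of 7 was higher and 4 lower in the small intestine than in the salivary glands. The lysosomal fucosidase FUCA1 had 30.3, 60.9 and 17.9, the sialidase NEU1 14.0, 37.9 and 23.9, and FUCA2 13.8, 14.9 and 32.6.

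The mucins on which these enzymes act differed by library. By symbol only 6 models were found, of which 3 of 4 compared were higher and 1 lower in the small intestine than in the liver, 1 of 3 higher and 1 lower in the salivary glands than in the liver, and 3 of 4 higher and none lower in the small intestine than in the salivary glands. MUC1, MUC5AC and MUC5B led them with a highest FPKM of 152, 14.8 and 3.01. A search by protein product, made after these values were seen, found 18 models. A submaxillary mucin-like gene (gene23163) had an FPKM of 5740 in the salivary glands, 15.2 in the small intestine and 0.155 in the liver, the same order as ST6GALNAC1. Mucin-6 (gene20488), the mucin of gastric glands, had 51.0, 0.0460 and 0.0104 in the small intestine, salivary glands and liver, and mucin-5AC (gene1604), of the gastric surface, had 14.8, 0.0292 and 0. A mucin-2-like gene (gene20489) was also highest in the small intestine, with 1.17, 0.00495 and 0.00305 from 177, 1 and 1 counts. A mucin-19 model (newGene_13638) and mucin-20 (gene17246) were counted only in the salivary glands, at an FPKM of 11.2 and 4.90, but 2 further mucin-19-like models were highest in the small intestine, at 1.27 (gene897) and 1.07 (newGene_8563).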

How the data were processed

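The authors aligned paired reads without strand by TopHat2 and joined new genes with Cufflinks. The genome build is not given in the sources used here. The authors deposited for each gene a count of fragments, FPKM (by RSEM), and a normalized score, used here solely as a check of those counts. The tool behind the counts is not given in the sources used here. The deposited counts look rounded up from estimates, so values of a few fragments are uncertain. Gene names came from the deposited annotation.

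Counts were scaled by TMM (edgeR 4.0.16, R 4.3.3; DESeq2 1.42.0 for alternative size factors). Ratios carry exact binomial (Clopper-Pearson) 95% intervals, computed with scipy 1.17.1. No test was run, since each tissue had 1 library, and the procedure was tested on simulated data. The members and lists were chosen with earlier results of these data known. Named members have an FPKM of at least 10 in a library, are among the 3 highest of their prefix, or have an FPKM of at least 1 and 8-fold over both other libraries. Pathway lists were matched by the KEGG symbol, then the Swiss-Prot symbol, with the 3 highest named. GALNT3, GALNT10, GALNT14, GALNT18, CHSY1, CHSY3, B4GALT4 to B4GALT7, B3GALT5, B3GNT5, FUT1, FUT2, FUT4, FUT9, the longer ST3GAL3, the ST6GAL2 models and members called over both other libraries were named after their values were seen. Alternatives were other scalings, folds and filters. The study's referred liver library was not used here. The values of 1 member are not reported here by name.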

Additional observations from a re-analysis of the deposited data

How the results depend on the processing

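No paired analysis was possible because each tissue had 1 library, and for the same reason no library could be left out. Depth limits statements on members with a few counts. Under the FPKM fold, no ratio of a named member that was called changed direction. Library size only, DESeq2 size factors and upper quartile scaling could not turn a called ratio, since each shifts all ratios by less than the 2-fold needed for a call. Library size only shifted all log2 ratios by -0.24 (small intestine over liver), 0.22 (salivary glands over liver) and -0.46 (small intestine over salivary glands), and moved 38 of 111 named log2 ratios beyond their counting interval, while the FPKM fold moved 16 of 105.

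With library size only, 20 members in place of 13 were higher in the salivary glands than in the small intestine, and 13 in place of 19 were lower there. At a ratio of at least 4, 18 were higher in the small intestine than in the liver and 8 lower, 13 and 11 were higher in the salivary glands and in the liver when these were compared, and 10 and 3 in the small intestine and the salivary glands. With members of the same Swiss-Prot symbol summed, these pairs became 10 and 9 (small intestine, liver), 10 and 8 (salivary glands, liver) and 12 and 3 (small intestine, salivary glands). This leaves fewer genes and also adds together different enzymes that share a symbol, such as GALNT12 with GALNT6 and ST6GALNAC1 with ST3GAL1, which peaked in different libraries. Above an FPKM of 5, 25, 25 and 21 members were expressed in the small intestine, salivary glands and liver.

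The step sums are given for the small intestine, salivary glands and liver. As TPM they were 182, 246 and 182 (core), 128, 193 and 116 (extension), 66.2, 77.3 and 77.3 (fucose) and 254, 218 and 505 (sialic acid). Without the gene that had the highest FPKM of its step in any library, taken out of all 3 (C1GALT1C1, B4GALT1, FUT3 and ST6GALNAC2), they were 116, 131 and 89.1, then 75.6, 82.3 and 62.4, then 19.5, 18.0 and 8.37, and last 88.3, 115 and 299.6. Divided by the TMM factor, the small intestine and salivary gland sums were 153 and 126 (core), 107 and 98.5 (extension), 55.6 and 39.5 (fucose) and 213 and 111 (sialic acid). With members found by the KEGG symbol first, a choice made after seeing the data, the core sums were 137, 139.5 and 102, and the extension sums 105 in the salivary glands and 60.4 in the liver. The liver had the highest sialic acid sum under each of these. Taking out ST6GALNAC2 could not have changed that, since it lowered the small intestine sum most. ST6GAL1, nearly as high in the liver, was not taken out.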
